A study of Mus musculus with 2 samples.

Results

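The Arl genes encode Arf-like proteins, small GTPases of the Arf family that switch between a GDP-bound and a GTP-bound state and recruit effector proteins to a membrane or a cargo when GTP is bound. Different members act at different places. Arl1 works at the trans-Golgi, Arl2 in the folding of tubulin, Arl3 and Arl6 in the delivery of proteins to the primary cilium, and Arl8a and Arl8b in the movement of lysosomes along microtubules. The 10 genes described here, Arl1, Arl2, Arl3, Arl4c, Arl5a, Arl6, Arl8a, Arl8b, Arl15 and Arl16, were taken by their symbols, and all probesets that the array's probe-to-gene table names with 1 of these symbols alone were used. This gave 43 of the 270105 probesets with 1 symbol, and these belong to 5 of the 10 genes: 12 to Arl1, 5 to Arl2, 5 to Arl3, 15 to Arl15 and 6 to Arl16. Arl4c, Arl5a, Arl6, Arl8a and Arl8b were matched to no probeset by symbol or older symbol and were not analysed here. The family was chosen by its values in these arrays, namely the DMSO level, the inhibitor level and the difference of its genes, so these values are given below as a description.

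The study grew embryoid bodies from the mouse embryonic stem cell line Bry-GFP, in which GFP reports the mesoderm gene Brachyury, and isolated FLK1-positive mesoderm cells from them on day 3. These were cultured with the solvent DMSO alone in the control group or with 300 nM of compound B, an inhibitor of the histone demethylase LSD1, in the treated group, and both groups share the line and the FLK1 selection. The CD41-positive cells were sorted on culture day 2, and their total RNA was hybridised to 1 Affymetrix array per group. With 1 array per group there was no test between groups, and precision is limited by the number of arrays. An SD given below is the spread over the probesets of a gene and not an error between cultures.

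A value is the log2 intensity of a probeset as deposited. A probeset was called bright if the higher of its 2 values reached the median of the table, 3.17, and a gene was measured with at least 4 bright probesets. The level of a gene is the median of its bright probesets in an array, and its difference is the median of their differences, inhibitor minus DMSO, which can depart from the gap between the levels. The size rule asked for a difference of at least 1, which is 2-fold, with at least 75% of the bright probesets in the same direction. Of 15087 measured genes, 259 were higher past this rule (1.72%) and 85 were lower (0.563%), and the median difference was 0.06. All 6 endothelial and all 7 blood emergence markers lay above the median of the table in both arrays, but so did every measured pluripotent, endoderm, neural and cardiac marker, so this does not check the label. Several marker lists differed between the arrays. The 6 endothelial markers were all above 0 in difference, 3 of them past the size rule, and their summed linear intensity was 594 in the DMSO array and 1736 in the inhibitor array. The 6 erythroid markers were all below 0, from -1.89 to -0.07, 4 of them past the rule, with sums of 8705 and 2187. A linear sum follows the brightest genes of a list. These were Hba-x and Hbb-y in the erythroid list, and Acta2 (-0.41, not past the rule) among the smooth muscle and mesenchyme markers. The 3 measured megakaryocyte markers were all below 0 (1 past the rule, sums 301 and 196), as were the 6 smooth muscle and mesenchyme markers (2 past the rule, sums 2624 and 1747). The 5 cardiac markers were all above 0 (2 past the rule, sums 208 and 359). Of the 7 blood emergence markers, 4 were above 0 (2 past the rule, Gfi1 and Gfi1b, sums 945 and 1706). The others were Spi1 (0.35), Runx1 (0.11), Itga2b, which encodes the CD41 sort marker (-0.12), Ptprc (-0.25) and Kit (-0.66). The higher sum came mainly from Gfi1b, with levels of 8.41 and 9.93, so it does not stand for the whole list. No pluripotent, endoderm or neural marker passed the rule. The neural sums were 166 and 265, with Tubb3 at 0.95, just short of the rule, and 2 of the 4 neural markers above 0. The pluripotent sums were 49.5 and 55.1 and the endoderm sums 44.9 and 50.4. The part of these shifts in the Arl values was not tested, and more cells of a type cannot be told apart from more RNA per cell in such bulk samples.

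All 5 measured Arl genes had a higher value in the inhibitor array, and none passed the size rule in either direction. For 4 of them, Arl1, Arl2, Arl15 and Arl16, the size was nearly the same, between 1.35-fold and 1.37-fold. Arl3 was at 1.05-fold, close to the median gene. Most of its probesets had high values, and the brightest probesets of Arl1 and Arl2 also differed little. Arl1 probesets with DMSO values of 8.11, 8.28 and 8.51, within the range of the Arl3 ones, differed by 0.37, 0.87 and 0.51. The part of probeset level in the Arl3 value was not tested. The median over the 5 genes was 0.44 on the log2 scale, against 0.06 over all measured genes, of which 59% had a difference above 0. Of the 42 bright Arl probesets, 36 were higher with the inhibitor and 6 were lower, whereas 54.7% of all 208583 bright probesets were higher. The threshold was reached in the inhibitor array alone by 3 of the 36, which therefore had to be higher. They belong to Arl15 and Arl16 and enter the differences of these genes. Of the 39 that were bright in both arrays, 33 were higher. The 54.7% is over probesets bright in either array, and the share over all probesets bright in both was not computed.

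**Figure D1:**
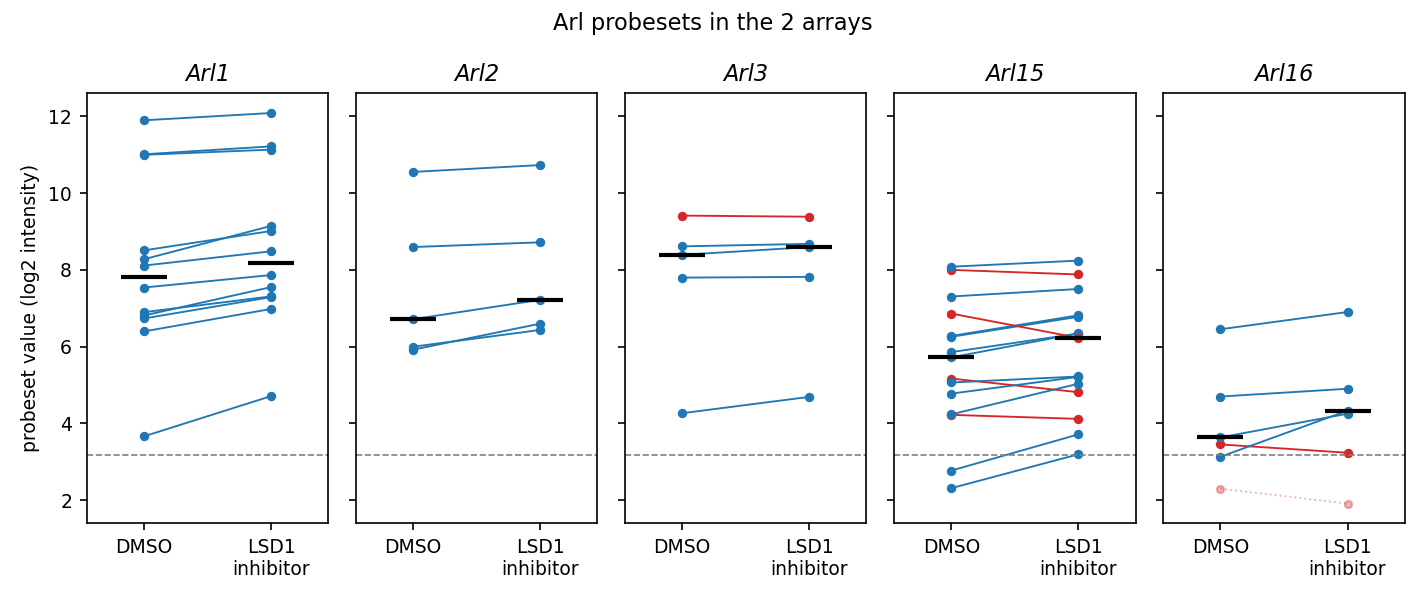
Each line joins the values of 1 probeset in the DMSO array and in the LSD1 inhibitor array, as log2 intensity, for the 5 Arl genes. Blue lines are probesets higher with the inhibitor and red lines are lower ones, black bars are the gene levels, the dashed line is the bright threshold of 3.17, and the faint dotted line in Arl16 is the 1 probeset below it. All 12 lines of Arl1 and all 5 of Arl2 go up, and those of Arl3 are nearly flat but for the dimmest.

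The promoters of Arl1 and Arl3 are shown because these genes had the largest and the smallest difference of the 5. The sequences are the 250 bases before the start of the gene, from RefSeq on GRCm38.p6, 5′ to 3′ on the strand of the gene. Capitals mark AATC, the core of the site bound by the repressors Gfi1 and Gfi1b, which recruit LSD1, together with the GC box GGGCGG and the CCAAT box, each searched on both strands, where CCAAT followed by C also holds AATC. The Arl1 promoter is chr10:88731164-88731413 on the plus strand and the Arl3 promoter is chr19:46573183-46573432 on the minus strand.
Arl1: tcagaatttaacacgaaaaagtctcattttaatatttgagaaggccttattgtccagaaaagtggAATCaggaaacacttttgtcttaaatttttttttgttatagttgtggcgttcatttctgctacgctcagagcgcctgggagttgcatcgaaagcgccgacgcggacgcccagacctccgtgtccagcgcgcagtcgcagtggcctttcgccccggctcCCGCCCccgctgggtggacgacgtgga
Arl3: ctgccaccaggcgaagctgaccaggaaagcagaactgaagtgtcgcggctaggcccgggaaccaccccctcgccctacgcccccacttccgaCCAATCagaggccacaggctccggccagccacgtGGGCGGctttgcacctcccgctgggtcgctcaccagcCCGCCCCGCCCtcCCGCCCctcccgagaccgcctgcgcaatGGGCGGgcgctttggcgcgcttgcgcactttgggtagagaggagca

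The Arl1 promoter held 1 AATC, 1 GC box and no CCAAT. The Arl3 promoter held 1 AATC, 5 GC boxes and 1 CCAAT. AATC occurred in 69.0% of 32841 mouse promoters of this length, the GC box in 32.7% and CCAAT in 33.9%. These matches are a description of the letters in the window. What the 5 promoters had in common was their content of CpG, between 20 and 34 per 250 bases against a median of 6 over all promoters. An equal or lower number was found in 83.6% of all promoters for Arl1 and Arl2 and in 97.0% for Arl16, the highest of the 5. GC content was lowest in Arl1 (51.2%) and between 64.4% and 70.0% in the other 4, against a median of 52.4%. Every one of the 5 held at least 1 GC box. The promoters of Arl4c, Arl5a, Arl6 and Arl8a, whose expression was not analysed, also held at least 1 GC box, with between 19 and 39 CpG.

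Arl1, which brings golgin tethers and other effectors to the trans-Golgi membrane, had a level of 7.83 in the DMSO array and 8.17 in the inhibitor array. Its difference was 0.46 (SD 0.28 over 12 probesets), which is 1.37-fold, and 89.0% of measured genes had an equal or lower difference. All 12 probesets were higher with the inhibitor, with differences from 0.14 to 1.05. Among all measured genes with 12 bright probesets, 3.37% had every probeset higher. The probesets of Arl1 shared a direction but not a size. The 3 brightest probesets of Arl1, at 11.90, 11.01 and 11.00 in the DMSO array, were at 12.09, 11.22 and 11.13 in the inhibitor array, differences of 0.19, 0.21 and 0.14. The dimmest went from 3.66 to 4.71. With its 6 brighter probesets alone, the difference of Arl1 was 0.29.

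Arl2, which acts with cofactor D in assembling tubulin dimers and is also found in mitochondria, had levels of 6.71 and 7.22. Its difference was 0.44 (SD 0.23), or 1.35-fold, with 5 of 5 probesets higher. Of the measured genes with 5 bright probesets, 9.02% had every probeset higher. Its brightest probesets again differed least. They had values of 10.55 and 8.59 in the DMSO array and 10.73 and 8.72 in the inhibitor array, and the other 3 differed by 0.44, 0.50 and 0.68. With its 3 brighter probesets alone, Arl2 was at 0.18.

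Arl3, which in its GTP-bound form releases lipid-modified proteins from their carriers inside the cilium, was the member with the smallest difference. Its levels were 8.39 and 8.59 and its difference 0.07 (SD 0.18 over 5 probesets), with 51.0% of measured genes at an equal or lower value. It had 4 probesets higher and 1 lower. The 4 probesets above 7 differed by -0.03, 0.02, 0.07 and 0.20, and the dimmest, at 4.27 and 4.69, by 0.43. With an SD of 0.18 over probesets, the difference of Arl3 was smaller than the spread within the gene.

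Arl15, a member that binds the CNNM proteins of magnesium transport, had levels of 5.72 and 6.23. Its difference was 0.44 (SD 0.46 over 15 probesets), or 1.35-fold, so it did not exceed the spread of its own probesets. Of these, 11 were higher and 4 lower, from -0.63 to 0.94. A probeset with values of 6.86 and 6.23 went furthest down. Another, with nearly the same mean level, went from 6.28 to 6.82. Such scatter was not particular to Arl15. The SD of the difference was 0.51 over all bright probesets with a mean between 6 and 8. Over all measured genes the median SD within a gene was 0.60. The 2 that went furthest up, from 2.77 to 3.71 and from 2.31 to 3.20, were dim in the DMSO array. They counted as bright through the inhibitor array alone and so had to be higher, and the second just passed the bright threshold of 3.17. With dim values set to the table's median, Arl15 was at 0.20, and with its odd-ranked probesets alone at 0.18.

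Arl16, a less studied member, lay just above the bright threshold in the DMSO array. Its levels were 3.63 and 4.33 and its difference 0.45 (SD 0.53 over 5 bright probesets), or 1.37-fold, with 4 probesets higher and 1 lower. The highest difference, 1.20, belonged to a probeset with values of 3.13 and 4.33. Its DMSO value was below the bright threshold of 3.17. It was counted through the inhibitor array alone and so had to be higher. The brightest went from 6.45 to 6.90. The probeset left out as dim had values of 2.30 and 1.91, and the difference of Arl16 was 0.33 with it kept. The table gives no detection call, so the dim probesets cannot be told from background.

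**Figure D2:**
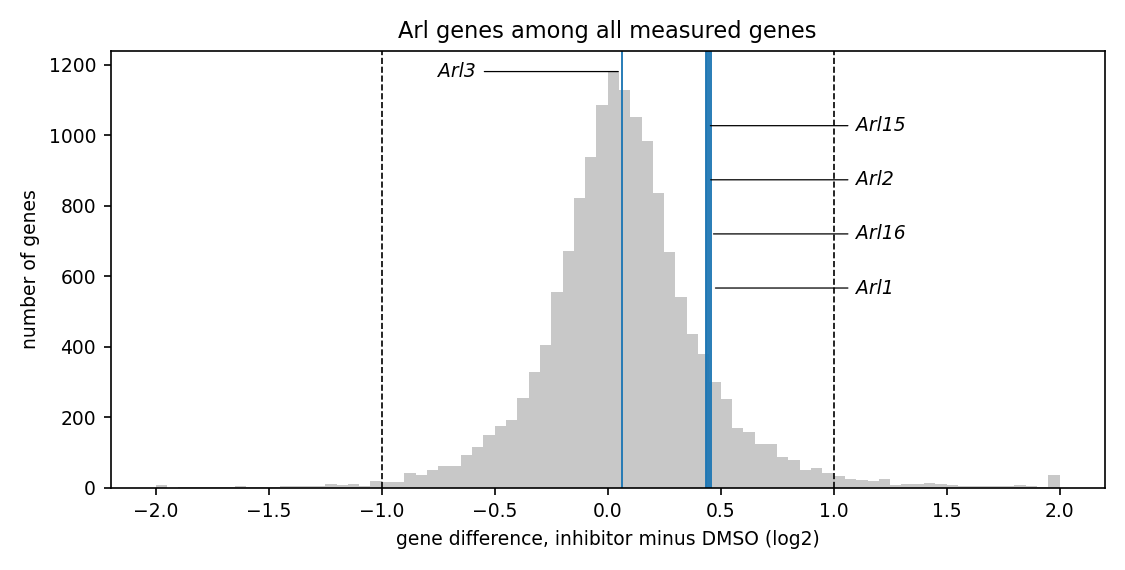
Histogram of the gene differences, inhibitor minus DMSO in log2, of the 15087 measured genes, with differences beyond -2 or 2 placed in the outermost bars. Blue lines mark the 5 Arl genes and dashed lines the 2-fold limits of the size rule. Arl3 (0.07) lies near the middle of the distribution, close to its peak. Arl15, Arl2, Arl16 and Arl1 lie together between 0.44 and 0.46, on the upper shoulder of the distribution and inside the limits.

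The Arl differences were small in the brightest probesets and followed no steady order below these. The 4 probesets with a mean over 10, which belong to Arl1 and Arl2, differed by 0.14 to 0.21. The 8 between 8 and 10 had a median of 0.18 and reached 0.87. The 17 between 6 and 8 had a median of 0.48, with 15 of them higher. The 8 between 4 and 6 had a median of 0.31, with a range from -0.36 to 1.05. The 5 at or below 4, of Arl15 and Arl16, ranged from -0.22 to 1.20, and 3 of them are those that passed the threshold through the inhibitor array alone, so their median is not read. Over the probesets of a gene, Spearman's rho between mean level and difference was -0.71 in Arl1 (12 probesets), -0.60 in Arl2 and -0.70 in Arl3 (5 each), -0.41 in Arl15 (15) and 0.10 in Arl16 (5). These points share the same 2 arrays, and probesets of a gene share its transcripts, so the coefficients are a description. Over all bright probesets the median difference was between 0.02 and 0.09 in each of the same level ranges. The spread differed more, with an SD of 1.07 at or below 4 and 0.23 over 10. Removal of a level-dependent trend over all probesets left Arl1 at 0.38, Arl2 at 0.34, Arl3 at 0.0073, Arl15 at 0.38 and Arl16 at 0.35.

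**Figure D3:**
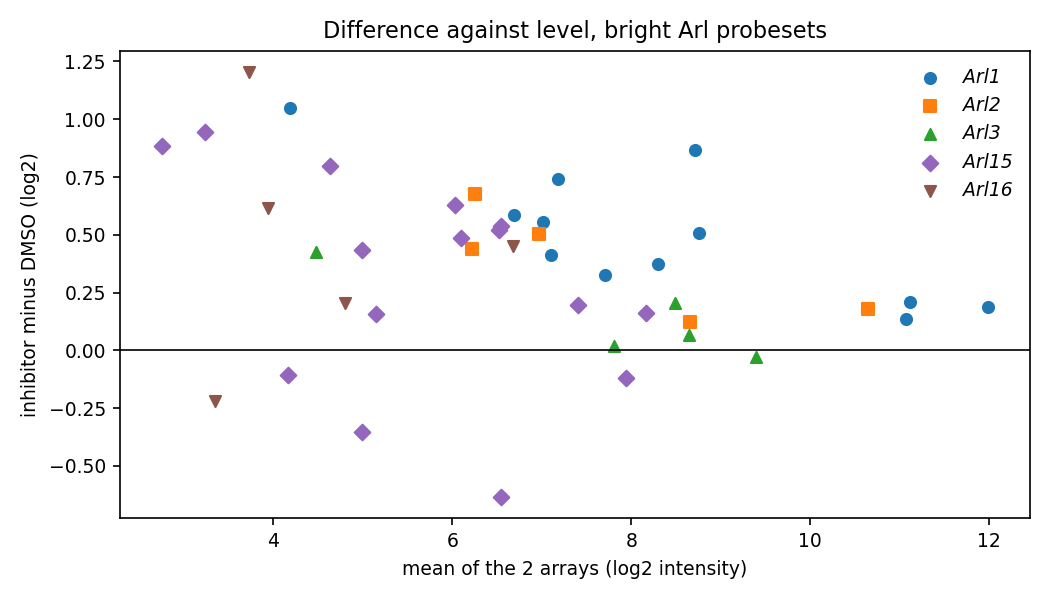
Difference of each of the 42 bright Arl probesets, inhibitor minus DMSO in log2, against the mean of its values in the 2 arrays. Colours and symbols give the gene. Points over a mean of 10 lie between 0.14 and 0.21, and those at or below 4 spread from -0.22 to 1.20.

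Genes that work with the Arl proteins were set beside them in 9 lists of 81 genes, of which 65 were measured. None of the 65 passed the size rule, beside 1.72% higher and 0.563% lower of all measured genes. Their median difference was 0.17, and 50 of 65 were above 0, beside a median of 0.06 and 59% above 0 over all measured genes. At 1.5-fold, which 5.85% of genes passed upward and 2.66% downward, 3 partners were higher and 1 was lower. These were Borcs7, Bbs5 and Scoc, and Bbs12. Borcs7, Bbs5 and Bbs12 had every bright probeset in 1 direction, and the share of all genes with this was not computed at their probeset numbers.

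Among the other Arf, Arl and Sar1 GTPases, 9 of 20 were measured, with a median of 0.20 and 8 above 0. The 9 are Arf1, Arf2, Arf3, Arf4, Arf6, Arfrp1, Sar1a, Sar1b and Trim23, so they include no further Arl gene. Other Arl genes with too few bright probesets are given at the end. The largest differences were those of the COPII coat GTPases Sar1a (0.37) and Sar1b (0.29), which drive vesicle budding from the endoplasmic reticulum. The trans-Golgi partners of Arl1 had a median of 0.21 over 11 measured genes, 8 of them above 0 (between 0.10 and 0.24 over 13 alternative settings). Scoc, whose protein binds Arl1, was at 0.65 (levels 5.35 and 6.44, SD 0.59, 9 of 10 probesets higher). Arfip1, which encodes an arfaptin, was at 0.43. The 8 measured genes around Arl2 and tubulin folding had a median of 0.16, with 7 above 0 (0.08 to 0.22 over the alternatives). The Arl2-binding protein gene Arl2bp was at 0.35 with 8 of 9 probesets higher, and the tubulin cofactor gene Tbce at 0.29.

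The 5 measured partners of Arl3 had a median of 0.23, and 4 were above 0. That median was not stable, since it was 0.047 with only the brighter probesets and 0.026 with odd-ranked ones, both below the 0.07 of Arl3. They included Unc119b, a carrier of myristoylated cargo, at 0.28 with 3 of 5 probesets higher, although its level was 6.82 in the DMSO array and 6.28 in the inhibitor array, and Rp2, the GTPase activator that turns Arl3 off, at 0.23. Both differences exceeded the 0.07 of Arl3 itself but not their own SD over probesets, 0.58 and 0.33. The genes of Arl15's partners, the 4 CNNM proteins, had a median of -0.02, with Cnnm2 at 0.40 and Cnnm4 at -0.16, and this median was above 0 in 4 of 13 alternative settings.

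Partner genes were also measured for the Arl members not analysed here. The 12 genes of the BBSome, the coat complex that Arl6 recruits to ciliary membranes, and of its assembly had a median of 0.15, with 9 above 0 (0.10 to 0.24 over the alternatives). They held the widest range of any list here. Bbs5, a BBSome subunit gene, was at 0.70 (levels 4.41 and 5.25, SD 0.49, 10 of 10 probesets higher). Bbs12, which encodes a chaperonin-like protein needed to assemble the BBSome, was at -0.94 (levels 5.10 and 4.11, SD 0.76, 6 of 6 probesets lower), just short of the size rule. It passed the rule at -1.17 with its dim probeset kept and at -1.75 with its 3 brighter probesets alone. Of the genes around Arl8 and lysosome position, 9 were measured with a median of 0.08 (-0.05 to 0.14 over the alternatives). Borcs7, a subunit of the BORC complex that brings Arl8 to lysosomes, was at 0.71 (levels 6.66 and 7.01, SD 0.32, 7 of 7 probesets higher), and Snapin, another subunit, at 0.30. The GARP tethering complex that works with Arl5 had a median of 0.08 over its 4 genes (-0.0056 to 0.11 over the alternatives), with Vps53 at 0.33 and Vps54 at -0.19. The 4 cytohesin genes, exchange factors for Arf proteins that Arl4 recruits to the plasma membrane, were all above 0 with a median of 0.34, led by Cyth4 at 0.53 (SD 0.86) and Cyth2 at 0.46 (SD 0.52). The cytohesin median was 0.14 with dim probesets kept and 0.22 with only the brighter ones.

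**Figure D4:**
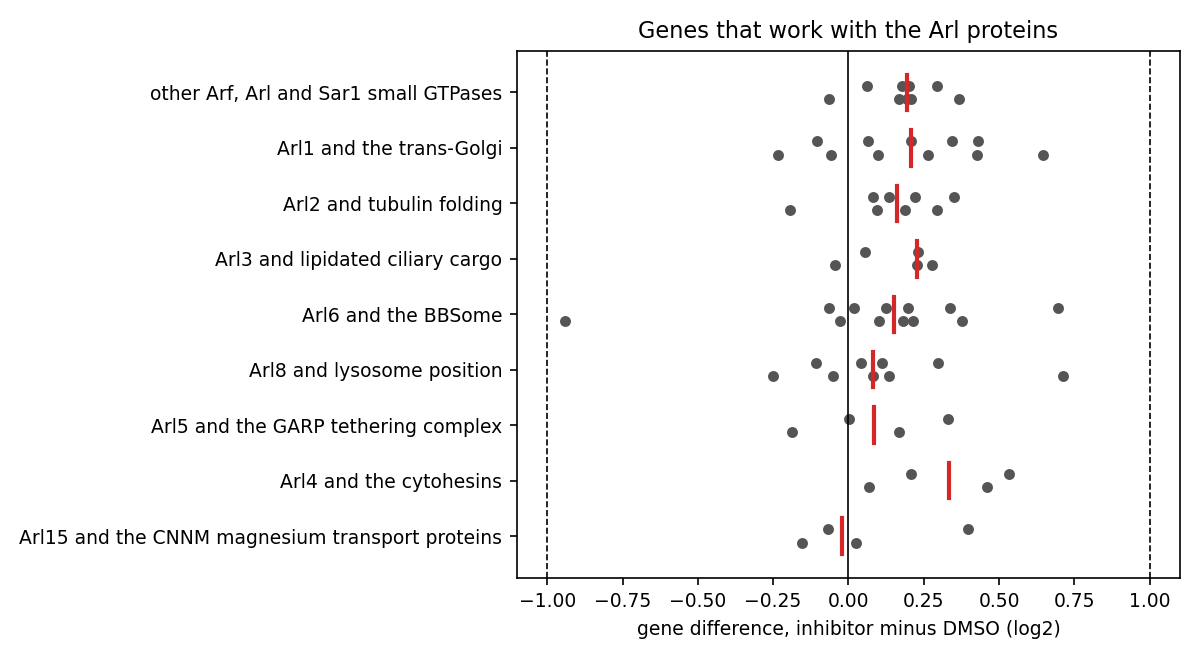
Differences of the measured partner genes, inhibitor minus DMSO in log2, 1 point per gene and 1 row per list, with the list median as a red bar and the 2-fold limits dashed. All points lie inside the limits, with Bbs12 (-0.94) nearest the lower and Borcs7 (0.71) nearest the upper one.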

How the data were processed

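The deposited table holds 1 log2 value per probeset for each of 2 arrays. The base was judged from its values, 0.157 to 13.5. Per the labels, biotin-labelled single-stranded cDNA made from amplified cRNA was hybridised. How the authors summarised and normalized the probes is not stated in the sources used here. At equal rank the arrays differ by 0.085 or less. The table has 1048575 probesets, and any beyond these were not analysed here. The probe-to-gene table names 275842 of them, 5737 with several symbols, which were left out. Another 772733 have no gene name, so a missing match for an Arl gene does not show that the array lacks it. Of 22133 symbols, 17905 were current in RefSeq (GRCm38.p6), 4167 were updated through synonyms and 61 were kept, giving 21947 genes. Groups came from the sample titles. Summaries used Python 3.11.15, pandas 2.3.3, NumPy 2.4.6 and statsmodels 0.14.6 (lowess span 0.2) and were tested on simulated data. No p-value was computed. All 10 Arl genes were to be named, and of each partner list the genes past the size rule and the 2 with the largest absolute difference; the 4 partners past 1.5-fold are among these. Promoters in RefSeq's table were matched by symbol for 9 of the 10 genes. The members and lists were chosen with earlier results of these data known.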

Additional observations from a re-analysis of the deposited data

How the results depend on the processing

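No Arl gene passed the size rule under any of the 16 alternatives, and every measured Arl difference kept its sign. The settings at 1.5-fold, at 3-fold and without the direction rule changed the calling alone. A difference was available in 13 alternatives for Arl1 and Arl15, 10 for Arl2 and Arl3 and 9 for Arl16. Some of these left it unchanged, as at least 1 bright probeset did for every Arl gene. Arl1 ran from 0.29 to 0.53, Arl2 from 0.18 to 0.46 and Arl3 from 0.0073 to 0.14. Arl15 ran from 0.18 to 0.48 and Arl16 from 0.33 to 0.48. The median of the measured ones ran from 0.29 to 0.46 over 14 alternatives. Arl2 moved by more than its SD over probesets when only the brighter probesets were used, to 0.18. At least 8 bright probesets, odd-ranked or even-ranked probesets left 2 Arl genes measured, Arl1 and Arl15, and the 75th percentile filter left out Arl16. The numbers of genes past the rule were 641 higher and 439 lower with at least 1 bright probeset, 155 and 44 with at least 8, 882 and 402 at 1.5-fold and 70 and 18 at 3-fold. The lower count was 153 with the brighter probesets and 51 with values raised to the table's median. The CNNM list median turned to 0.0055 with arrays centred, 0.00022 after quantile normalization, 0.077 with means and 0.010 with even-ranked probesets. The median of the Arl3 partners moved to 0.047 with the brighter and 0.026 with odd-ranked probesets, and that of the cytohesins ran from 0.14 to 0.39. The GARP median turned to -0.0056 with the brighter probesets, and the lysosome list median to -0.0045 with at least 8 probesets and -0.047 with even-ranked ones. Bbs12 was the single partner gene past the size rule under any alternative at 2-fold. The causes were not tested. No paired analysis was possible because each group has 1 array.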

Other observations

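Other Arl genes had probesets but fewer than 4 bright ones and were not counted above. Arl11, with 3 bright probesets of 3, had levels of 3.95 in the DMSO array and 3.77 in the inhibitor array and a difference of -0.53, with 1 probeset higher and 2 lower. Arl9 had 2 bright probesets of 4, which differed by -0.57 in the median, and all 4 of its probesets were lower with the inhibitor, at levels of 2.64 and 2.30 that are below the table's median. Arl14, with 1 bright probeset of 4, was at 0.04 over all 4, with levels of 2.66 and 2.40.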
